A study of Mus musculus with 6 samples.

Results

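Genes that form or accompany gap junctions were read from the gene count table of sorted mouse kidney endothelial cells (ECs): Gja1, Gja4, Gja5 and Gjc1, which encode the connexins Cx43, Cx37, Cx40 and Cx45, and Panx1, which encodes pannexin 1. They were taken by gene name, and all 5 of 5 were found among the 55401 genes listed. Each passed the low-count filter, which kept 18438 genes. The libraries came from kidney cells sorted as CD31-positive and CD45-negative, from 3 CTRL mice (Cre -/-; Rbpjf/f) and 3 RbpjΔEC mice (Cre +/-; Rbpjf/f), with 1 library for each mouse. All 6 mice, controls included, carried loxP-flanked Rbpj and were given tamoxifen by 5 intraperitoneal injections of 1.5 mg from an age of 8 weeks. Kidneys were taken 12 weeks after induction, and the labels give an age of 21 weeks. Cre in the RbpjΔEC mice is tamoxifen-inducible and under the Cdh5 promoter, which is active in ECs of all vessel types, so deletion was not limited to arteries. The cells of a whole kidney were pooled in a sort, so each value is an average over arterial, capillary, venous and glomerular ECs, and fewer cells of a type and less RNA per cell cannot be told apart in it.

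Connexins assemble in rings, and rings of neighbouring cells dock to form gap junction channels that let ions and small molecules pass from cell to cell. In the vessel wall such channels carry changes of membrane potential along the endothelium and between endothelium and smooth muscle, which spreads dilation and constriction along arterioles. Cx40 and Cx37 are the typical connexins of arterial endothelium, Cx40 also couples the renin cells of the kidney, Cx43 is found in many cell types and in endothelium at sites of disturbed flow, and Cx45 is typical of smooth muscle. Pannexin 1 forms channels of single membranes that release ATP. RBPJ is the DNA-binding protein through which Notch receptors act on their target genes, and Notch signalling is required for arterial identity.

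The promoters of Gja5 and Gja4 are printed because these were the members whose groups did not overlap. Each runs from 250 bases before to 50 bases after the gene's start in RefSeq on GRCm38.p6, and capitals mark the longest string that both hold on the same strand. The Gja5 promoter lies at chr3:97032152-97032451, plus strand, and the Gja4 promoter at chr4:127313990-127314289, minus strand. In GENCODE M21, 2 of the 3 Gja5 transcripts start at 97032416 on chromosome 3, inside this window, and the other starts far upstream at 96904693, so the window is that of one of the starts. Of the 5 members, 4 had a promoter in the RefSeq table.
Gja5: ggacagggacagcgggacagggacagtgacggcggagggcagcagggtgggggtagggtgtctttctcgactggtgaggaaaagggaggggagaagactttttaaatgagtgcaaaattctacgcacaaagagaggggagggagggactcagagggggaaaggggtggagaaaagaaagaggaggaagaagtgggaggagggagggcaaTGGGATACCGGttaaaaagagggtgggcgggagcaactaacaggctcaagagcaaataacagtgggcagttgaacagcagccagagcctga
Gja4: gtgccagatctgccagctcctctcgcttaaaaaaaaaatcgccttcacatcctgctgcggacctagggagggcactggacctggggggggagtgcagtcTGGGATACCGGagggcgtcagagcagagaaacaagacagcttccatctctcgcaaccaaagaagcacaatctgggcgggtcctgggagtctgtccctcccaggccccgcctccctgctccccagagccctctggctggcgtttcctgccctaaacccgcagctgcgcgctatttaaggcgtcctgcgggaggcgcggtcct
The shared string TGGGATACCGG has 11 bases and begins 41 bases before this RefSeq start of Gja5 and 151 bases before that of Gja4. It was picked after the sequences were seen. Searched on both strands, it was held by 4 of 32851 promoters of the same length (0.0122%). The other holders were Dao and Vps4a. The log2 fold change of Dao, in RbpjΔEC relative to CTRL, was 1.10 (adjusted p = 0.333) and that of Vps4a was -0.021 (adjusted p = 0.906), both by edgeR's quasi-likelihood test, adjusted by the Benjamini-Hochberg method. Strings of 9 to 12 bases were also shared by the other pairs of members, mostly low-complexity runs such as AGGGGAGGGAGG, which Gja5 and Gja1 hold on opposite strands. The core sequence that RBPJ binds, TGGGAA, searched on both strands, was in 25.6% of the promoters. Among the members it was in that of Panx1, 16 bases before the start, and not in these windows of Gja5, Gja4 or Gja1. The longer form GTGGGAA, which contains the core, was in 6.38% of the promoters and in none of the members' windows.

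The libraries held between 39649171 and 47726850 counts assigned to genes, and levels are given as CPM, the counts of a gene scaled to library size with TMM, a correction for library composition. On that scale 3 counts stood for 0.0633 to 0.0748 CPM. Of the 18438 genes tested, edgeR's quasi-likelihood test, adjusted by the Benjamini-Hochberg method, placed 209 (1.13%) under an adjusted p of 0.05, 106 of them higher (0.575%) and 103 lower (0.559%) in the RbpjΔEC libraries. With library size alone as the scale these were 159 higher and 82 lower. Rbpj itself was at 29.2 ± 0.982 CPM in the CTRL group and 28.2 ± 1.86 CPM in the RbpjΔEC group (SD, n = 3 each, adjusted p = 0.793). Counts summed over all its exons need not show the loss of an excised part, which was not tested here. The summed level of 14 pan-endothelial markers lay between 27294 and 30110 CPM in the CTRL libraries and between 24935 and 25111 CPM in the RbpjΔEC libraries, and none of the 14 was at 0. Of the 14, 0 were called in edgeR, 5 were lower and 1 higher at an unadjusted p of 0.05, and DESeq2 called 4, all lower. The p-values measure the spread between these mice. An exact permutation test of 3 against 3 libraries cannot go below 0.1 (two-sided).

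None of the 5 members passed the adjusted threshold in edgeR in either direction, against 1.13% of all genes tested (0.575% higher, 0.559% lower). At an unadjusted p of 0.05, 2 of the 5, Gja4 and Gja5, were lower in the RbpjΔEC group, against 8.62% of all genes, and none was higher, against 8.88%. The groups of these 2 members, and of no other, did not overlap, against 23% of all genes in either direction and 11.6% of all genes with the RbpjΔEC group lower. DESeq2's Wald test, run over all 38324 genes with a count as the study did, placed these 2 members under an adjusted p of 0.05, with 1.52% of the genes called. That share also counts genes that failed the low-count filter, which all 5 members passed, so it is not matched to the members' levels. limma-voom called none of the 5 members and 244 of the 18438 genes tested (1.32%). The median log2 fold change of the 5 members was -0.13, and that of all genes was 0.0072.

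**Figure D1:**
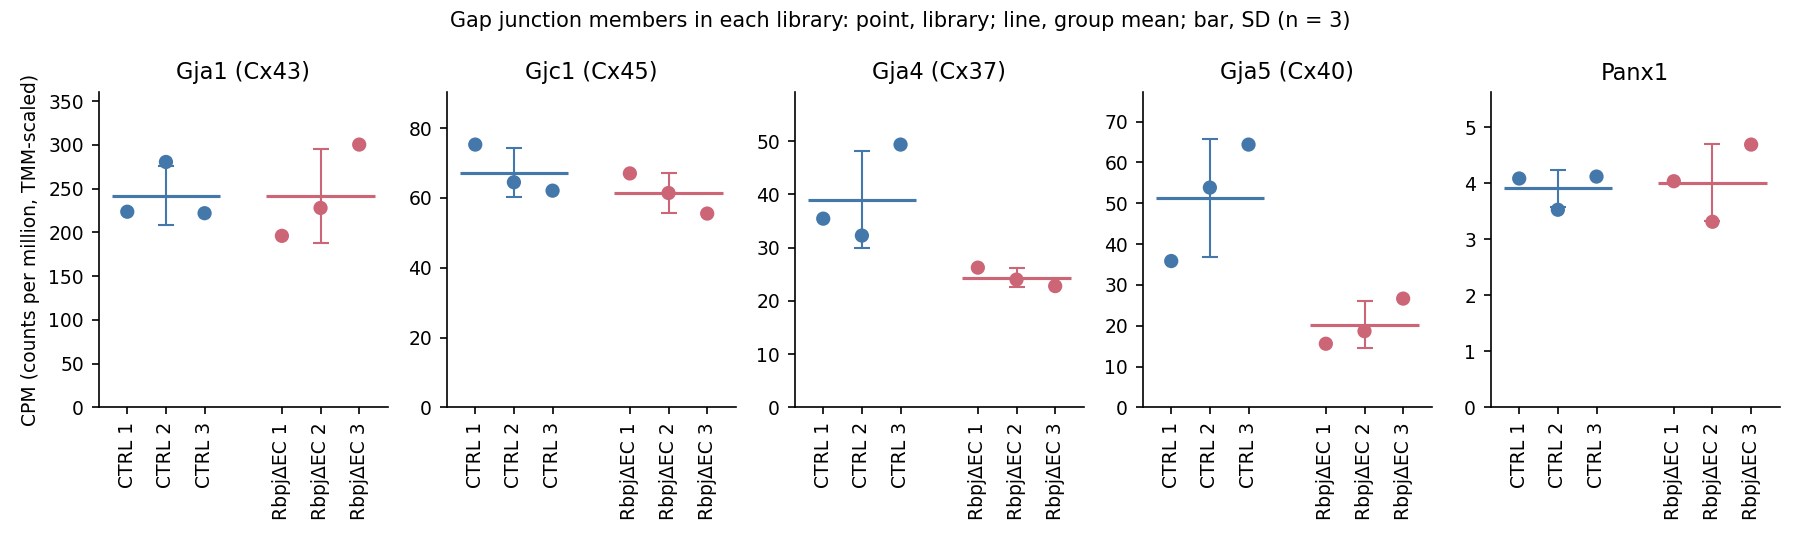
Level of each of the 5 members in every library, in CPM after TMM scaling, with 1 point for each mouse, a line for the group mean and a bar for the SD of each group of 3 (each panel has its own y axis, starting at 0). For Gja5 and Gja4 every RbpjΔEC point is below every CTRL point, whereas the points of Gja1, Gjc1 and Panx1 overlap between the groups.

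Gja5 (ENSMUSG00000057123.14), the gene of Cx40, lies on the plus strand at chr3:96904693-97077416 (GRCm38) and has up to 4 exons. Its level was 35.8, 53.8 and 64.4 CPM in CTRL mice 1, 2 and 3, and 15.6, 18.7 and 26.7 CPM in RbpjΔEC mice 1, 2 and 3. The highest RbpjΔEC library was thus below the lowest CTRL library. The group means were 51.3 ± 14.4 CPM and 20.3 ± 5.70 CPM (SD, n = 3 each), a log2 fold change of -1.34 (SE 0.29, 95% confidence interval -2.08 to -0.60), or 0.395-fold. It had an adjusted p of 0.110 in edgeR's quasi-likelihood test and of 0.00571 in DESeq2, and an exact permutation p of 0.1 (two-sided). Within the RbpjΔEC group the third mouse had the highest Gja5 level, and without it the log2 fold change was -1.58 with an adjusted p of 0.0403 in edgeR. With any other library left out, the adjusted p lay between 0.0874 and 0.272. Gja5 is overlapped on the other strand by Gpr89, which shares 165 of its 5746 exonic bases. No other overlapping gene shares exonic bases with it. Whether the counting used strand is not given in the sources used here, so reads of the shared bases could belong to either gene. The log2 fold change of Gpr89 was -0.24 (adjusted p = 0.190).

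Gja4 (ENSMUSG00000050234.7), the gene of Cx37, lies on the minus strand at chr4:127311421-127314039 and has 2 exons. It was at 35.5, 32.3 and 49.4 CPM in CTRL mice 1, 2 and 3, and at 26.3, 24.0 and 22.8 CPM in RbpjΔEC mice 1, 2 and 3. All RbpjΔEC libraries were below all CTRL libraries and close to each other. The means were 39.0 ± 9.09 CPM and 24.4 ± 1.76 CPM (SD, n = 3 each), a log2 fold change of -0.68 (SE 0.15, 95% confidence interval -1.01 to -0.35), or 0.624-fold. The adjusted p was 0.0622 in edgeR's quasi-likelihood test and 0.000928 in DESeq2, and the exact permutation p was 0.1 (two-sided). Without the second CTRL mouse, the lowest of its group for Gja4, the edgeR adjusted p was 0.0192, and with any other library left out it lay between 0.0833 and 0.180. Of the RbpjΔEC libraries, that of the third mouse had the lowest Gja4 level and the highest Gja5 level.

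Gja1 (ENSMUSG00000050953.10), the gene of Cx43, lies on the plus strand at chr10:56377330-56402513. Its level was 224, 281 and 222 CPM in CTRL mice 1, 2 and 3, and 196, 228 and 300.4 CPM in RbpjΔEC mice 1, 2 and 3. The third RbpjΔEC mouse was the highest and the first RbpjΔEC mouse the lowest of all 6, so the RbpjΔEC libraries spread around the CTRL libraries. The means were 242 ± 33.3 CPM and 242 ± 53.4 CPM (SD, n = 3 each), a log2 fold change of -0.0040 (95% confidence interval -0.41 to 0.40, adjusted p = 0.993 in edgeR). The interval does not reach a change as large as the point estimate for Gja4 or Gja5.

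Gjc1 (ENSMUSG00000034520.14), the gene of Cx45, lies on the minus strand at chr11:102799579-102819700. It was at 75.3, 64.5 and 62.1 CPM in CTRL mice 1, 2 and 3, and at 67.0, 61.4 and 55.5 CPM in RbpjΔEC mice 1, 2 and 3. The groups overlapped. Their log2 fold change was -0.13 (SE 0.094, 95% confidence interval -0.34 to 0.072, adjusted p = 0.493 in edgeR), an interval that does not reach the point estimate for Gja4.

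Panx1 (ENSMUSG00000031934.14) lies on the minus strand at chr9:15002128-15045478 and had the fewest counts of the 5, between 139 and 188 in a library. Its level was 4.08, 3.53 and 4.12 CPM in CTRL mice 1, 2 and 3, and 4.03, 3.31 and 4.69 CPM in RbpjΔEC mice 1, 2 and 3. The groups overlapped, with the lowest and the highest library both in the RbpjΔEC group. The log2 fold change was 0.037 (SE 0.21, 95% confidence interval -0.41 to 0.48, adjusted p = 0.947 in edgeR).

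Levels were compared between the genes as CPM per kilobase of exonic length. In the CTRL libraries the order was Gja1 (23.6 ± 3.25), Gja4 (23.2 ± 5.39), Gjc1 (13.4 ± 1.405), Gja5 (8.94 ± 2.51) and Panx1 (0.648 ± 0.0551; SD, n = 3 each). Gja1 and Gja4 did not differ beyond their spread there, and the other neighbours in that order did not overlap. In the RbpjΔEC libraries the order was the same, with Gja1 at 23.5 ± 5.21, Gja4 at 14.5 ± 1.04, Gjc1 at 12.3 ± 1.15, Gja5 at 3.53 ± 0.993 and Panx1 at 0.665 ± 0.114 CPM per kilobase. Gja4 there stood close to Gjc1, its lowest library at 13.5 and the highest Gjc1 library at 13.4 CPM per kilobase. The union of all exons is much longer than any single transcript for Gja1. By the length of the longest transcript, Gja1 stood at 62.3 and Gja4 at 23.2 CPM per kilobase in the CTRL group, and in the RbpjΔEC group Gjc1, at 18.0, came above Gja4, at 14.5.

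The sum of the 5 levels per kilobase was 64.8, 69.4 and 75.2 in CTRL mice 1, 2 and 3, and 51.5, 52.6 and 59.3 in RbpjΔEC mice 1, 2 and 3. On this scale no RbpjΔEC sum reached a CTRL sum (exact permutation p = 0.1, two-sided, n = 3 each). The separation rested on the choice of length. Per kilobase of the longest transcript the sums were 111.1, 125 and 123 in CTRL mice 1, 2 and 3 and 90.6, 96.5 and 115 in RbpjΔEC mice 1, 2 and 3, which overlapped (exact permutation p = 0.2, two-sided, n = 3 each). Without length the summed CPM also overlapped, at 374 to 435 in the CTRL libraries and 309 to 410.1 in the RbpjΔEC libraries (exact permutation p = 0.3, two-sided, n = 3 each). Of the sum by exonic length Gja5 took 9.63, 13.5 and 14.9% in the CTRL libraries and 5.27, 6.18 and 7.82% in the RbpjΔEC libraries, without overlap, and by the longest transcript 8.80 to 14.3% and 4.69 to 6.31%. Gja1 took 33.7, 39.4 and 28.8% in the CTRL libraries and 37.1, 42.3 and 49.4% in the RbpjΔEC libraries, with overlap. A share depends on the other members' levels too.

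**Figure D2:**
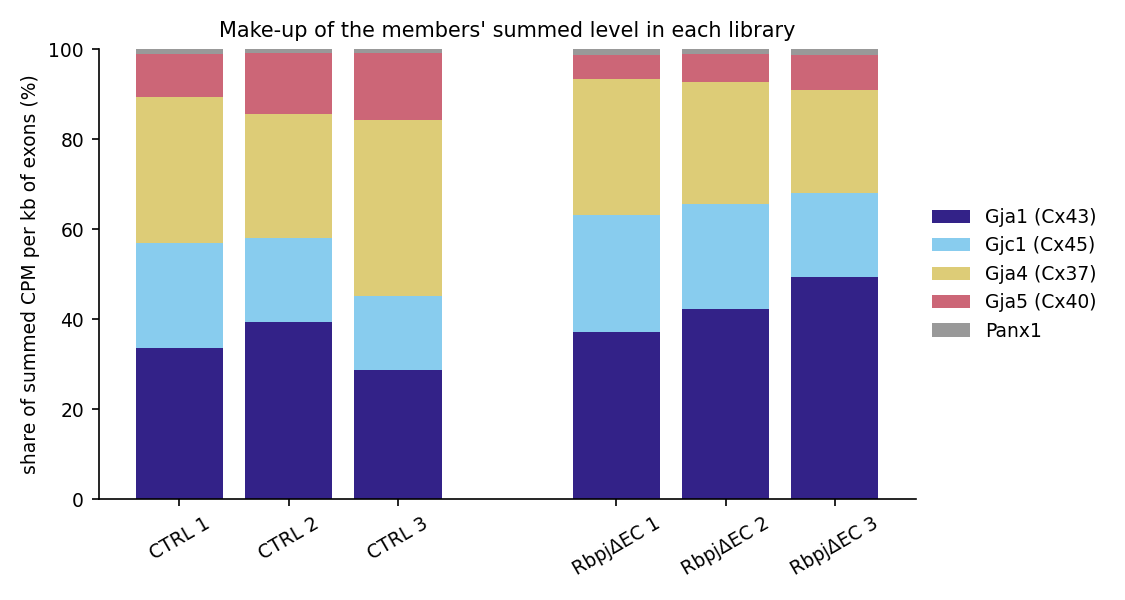
Share of each member in the summed level of the 5 genes, in percent of CPM per kilobase of exonic length, with 1 stacked bar for each library. The Gja5 segment is between 9.63 and 14.9% in the CTRL bars and between 5.27 and 7.82% in the RbpjΔEC bars.

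Ratios of 2 members within a library do not depend on its scaling. Of the 10 pairs of members, 4 had log2 count ratios that did not overlap between the groups, and each had an exact permutation p of 0.1 (two-sided, n = 3 each), the smallest possible, and a Benjamini-Hochberg adjusted p of 0.25 over the 10 pairs. The log2 ratio of Gja1 to Gja5 counts was 2.64, 2.38 and 1.79 in CTRL mice 1, 2 and 3, and 3.65, 3.61 and 3.50 in RbpjΔEC mice 1, 2 and 3. Every RbpjΔEC library thus held more Gja1 relative to Gja5 than any CTRL library, by 1.32 on the log2 scale between the means. The ratios of Gja5 to Panx1, Gja4 to Panx1 and Gja4 to Gjc1 were lower in the RbpjΔEC group, by log2 differences of -1.36, -0.68 and -0.53. The ratio of Gja5 to Gjc1 differed by -1.20, but its groups overlapped between the first CTRL mouse, at -1.07, and the third RbpjΔEC mouse, at -1.06. The ratio of Gja4 to Gja5 was -0.016, -0.74 and -0.38 in CTRL mice 1, 2 and 3, and 0.75, 0.36 and -0.23 in RbpjΔEC mice 1, 2 and 3. These overlapped (exact permutation p = 0.2, adjusted p = 0.286, two-sided, n = 3 each), so a larger difference for Gja5 than for Gja4 was not shown by this test.

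**Figure D3:**
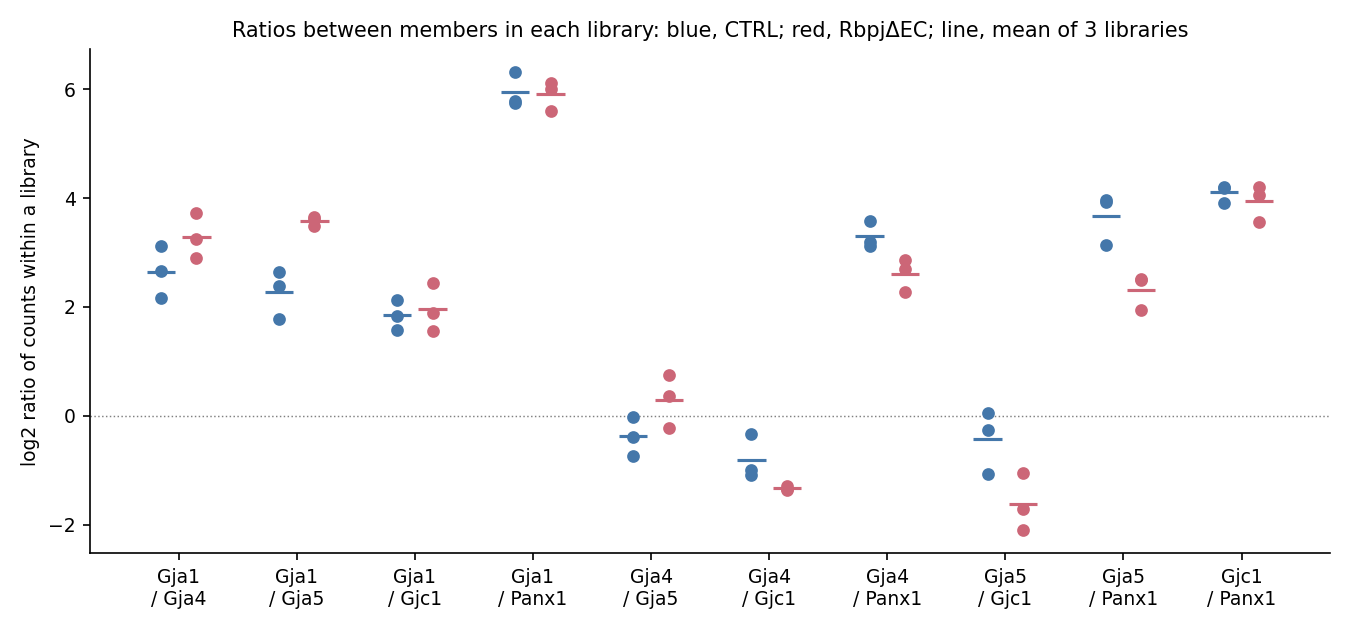
Log2 ratios of the counts of 2 members within each library, for the 10 pairs of members, with 1 point for each mouse and a line for the group mean. For Gja1 to Gja5 the RbpjΔEC points lie between 3.50 and 3.65 and the CTRL points between 1.79 and 2.64.

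Of the 18 other connexin and pannexin genes listed, 3 passed the low-count filter, and none of these was under an adjusted p of 0.05 in edgeR, DESeq2 or limma-voom, or under an unadjusted p of 0.05 in edgeR. Gja6 was at 0.862 ± 0.0910 CPM in the CTRL group and 0.570 ± 0.139 CPM in the RbpjΔEC group (SD, n = 3 each, adjusted p = 0.446 in edgeR). Gjb2, the gene of Cx26, was at 0.473, 0.106 and 0.568 CPM in CTRL mice 1, 2 and 3 and at 0.357, 0.715 and 1.47 CPM in RbpjΔEC mice 1, 2 and 3. Its groups overlapped (log2 fold change 1.15, SE 0.65, adjusted p = 0.392 in edgeR), and its highest value was in the third RbpjΔEC mouse. All 18 together summed to between 1.69 and 4.16 CPM in a library, against 309 to 435 CPM for the 5 members. The first CTRL library had at least 1 count for 16 of the 18, against 5 to 8 in the others, and had counts on 33764 genes, against 25629 to 26785 in the others.

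In the lists that follow, called, rose and fell refer to an adjusted p under 0.05 in edgeR, unadjusted p-values are from edgeR too, and DESeq2's calls among the same tested genes are given beside them. Of all 18438 genes tested, 0.575% rose and 0.559% fell, and 8.88% were higher and 8.62% lower at an unadjusted p of 0.05. For 11.4% of them the groups did not overlap with RbpjΔEC higher, and for 11.6% with RbpjΔEC lower. The list of connexin partners holds scaffold, adhesion, caveolar and kinase genes whose proteins bind or modify connexins, and of its 11 tested genes 0 were called in either direction, 4 were lower and 0 higher at an unadjusted p of 0.05, with a median log2 fold change of -0.068, and DESeq2 called 0. The smallest p was that of Cav1, the gene of caveolin 1, at 100.3 ± 8.31 and 79.7 ± 6.72 CPM (log2 fold change -0.33, SE 0.085, adjusted p = 0.0820 in edgeR). All 3 RbpjΔEC libraries lay below all CTRL libraries for Cav1. Of 10 tested genes of pannexin channel opening and purinergic signalling, 0 were called, 1 was higher and 3 lower at an unadjusted p of 0.05, and the median was -0.15, while DESeq2 and limma-voom each called 1, higher.

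Of 6 genes listed under endothelial hyperpolarization, which starts the conducted signal that gap junctions pass on, 0 were called, 3 were lower at an unadjusted p of 0.05, and the median was -0.22, with 0 called by DESeq2. The list also holds Nos3, the gene of a nitric oxide synthase, and Piezo1, the gene of a mechanosensor. Its count and median are thus not of hyperpolarization channels alone. Kcnn4, the intermediate-conductance calcium-activated potassium channel, had the smallest p, at 2.24, 1.18 and 2.39 CPM in CTRL mice 1, 2 and 3 and 0.468, 0.596 and 1.07 CPM in RbpjΔEC mice 1, 2 and 3. Its groups did not overlap (log2 fold change -1.44, SE 0.40, adjusted p = 0.1003 in edgeR). Of 16 tested genes of the arterial program, 2 fell, 0 rose, 6 were lower and 1 higher at an unadjusted p of 0.05, and the median was -0.15. The genes that fell in edgeR were Jag1, the gene of a Notch ligand, by 0.54 on the log2 scale (SE 0.10, adjusted p = 0.0368 in edgeR), and Acvrl1, the gene of the endothelial BMP receptor ALK1. Acvrl1 was at 258 ± 5.52 CPM in the CTRL group and 208 ± 7.77 CPM in the RbpjΔEC group (SD, n = 3 each, log2 fold change -0.31, SE 0.065, adjusted p = 0.0468). With 1 library left out at a time, Jag1 passed in 3 of 6 fits, with adjusted p up to 0.150, and Acvrl1 in 2 of 6, with adjusted p up to 0.194. Both lost the call without CTRL mouse 3 or RbpjΔEC mouse 1 or 2, and Acvrl1 also without CTRL mouse 1, with library size alone as the scale and with the pan-endothelial sum as the scale, as did Jag1 with the latter. DESeq2 called 5 of the 16, all lower, which were these 2 and Hey1 (adjusted p = 0.00285 in DESeq2 and 0.0722 in edgeR), Hey2 (0.0492 and 0.0859) and Nrp1 (0.0249 and 0.0975). Hey1 and Hey2 are transcriptional repressors induced by Notch, and Nrp1 is a co-receptor of VEGF. The 1 gene higher at an unadjusted p of 0.05 was Dll4, the gene of another Notch ligand. Dll4 was at 441, 506 and 466 CPM in CTRL mice 1, 2 and 3 and 521, 575 and 551 CPM in RbpjΔEC mice 1, 2 and 3. Its groups did not overlap (log2 fold change 0.22, SE 0.076, adjusted p = 0.162 in edgeR and 0.23 in DESeq2).

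Genes of mural cells did not all move one way. Of 12 tested mural genes, which mark smooth muscle cells and pericytes, 3 fell and 0 rose in edgeR, 8 were lower and 1 higher at an unadjusted p of 0.05, and the median log2 fold change was -0.99. DESeq2 called 7 lower, Cspg4, Des, Notch3 and Pdgfrb beside the 3, and 1 higher, Kcnj8. Acta2, the gene of smooth muscle actin, was at 9.41, 9.75 and 11.5 CPM in CTRL mice 1, 2 and 3 and at 4.39, 2.57 and 5.51 CPM in RbpjΔEC mice 1, 2 and 3 (adjusted p = 0.0369 in edgeR). Myh11, smooth muscle myosin, fell by 1.08 and Rgs5, a regulator of G-protein signalling abundant in pericytes, by 0.88 on the log2 scale (adjusted p = 0.0468 for each). With 1 library left out at a time, Acta2 and Myh11 each passed in 3 of 6 fits (not without CTRL mouse 1 or 3 or RbpjΔEC mouse 1) and Rgs5 in 2 of 6 (not without CTRL mouse 1 or 2 or RbpjΔEC mouse 1 or 2), with adjusted p up to 0.154, 0.172 and 0.186. Rgs5 also lost its call with library size alone as the scale, with a filter of 1 CPM and in limma-voom, and Myh11 with the filter of 1 CPM. The summed level of the list was 269 to 322 CPM in the CTRL libraries and 232 to 259 CPM in the RbpjΔEC libraries, with no marker at 0 in all. Mylk, a kinase that ECs also express, made up most of it, and without Mylk the sums were 108 to 142 CPM and 83.3 to 107 CPM. Kcnj8 and Abcc9, the subunits of the pericyte and smooth muscle ATP-sensitive potassium channel, were instead higher in every RbpjΔEC library than in any CTRL library. Kcnj8 was at 11.1 ± 1.35 and 21.1 ± 8.27 CPM (adjusted p = 0.162 in edgeR and 0.00261 in DESeq2) and Abcc9 at 12.5 ± 3.42 and 25.5 ± 12.98 CPM (adjusted p = 0.307), CTRL first (SD, n = 3 each). Ren1, the gene of renin, was at 2.17, 3.00 and 2.32 CPM in CTRL mice 1, 2 and 3 and at 0.758, 1.07 and 1.55 CPM in RbpjΔEC mice 1, 2 and 3 (adjusted p = 0.0982 in edgeR). The part of these genes' cells in the Gja5 and Gja4 values was not tested.

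Of 4 glomerular EC genes, 1 fell, Lpl (lipoprotein lipase, by 0.84 on the log2 scale, adjusted p = 0.0212 in edgeR, not passing without CTRL mouse 1 or 3 or RbpjΔEC mouse 1, with adjusted p up to 0.105). At an unadjusted p of 0.05, 3 of the 4 were lower, the same number did not overlap between groups, the median log2 fold change was -0.71, DESeq2 called 2, both lower, and the summed level was 1686 to 2151 CPM against 1117 to 1555 CPM. Of 6 tested lymphatic EC genes 0 were called and 4 were lower at an unadjusted p of 0.05, with a median log2 fold change of -0.94, and DESeq2 called 2, Ccl21a and Reln, both lower. Their sums overlapped, at 632 to 736 CPM in the CTRL libraries and 654 to 689 CPM in the RbpjΔEC libraries, but Flt4, a receptor that blood ECs also express, made up most of them. Without Flt4 the sums were 35.8 to 57.9 CPM and 29.9 to 31.0 CPM, and Ccl21a, a chemokine of lymphatic ECs with near-identical gene copies that make its counts uncertain, was at 2.39 ± 0.779 and 0.857 ± 0.280 CPM (SD, n = 3 each, adjusted p = 0.0703 in edgeR and 0.021 in DESeq2). The lymphatic genes did not all move one way, and 2 of the 6, Flt4 and Prox1, were above 0 on the log2 scale. Prox1 was at 8.99 ± 0.978 CPM in the CTRL group and 10.1 ± 0.481 CPM in the RbpjΔEC group (SD, n = 3 each). Every RbpjΔEC library was above every CTRL library for Prox1 (log2 fold change 0.17, SE 0.13, adjusted p = 0.543 in edgeR).

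Of 10 tubule genes 0 were called in edgeR or DESeq2, with sums of 306 to 430 CPM in the CTRL libraries and 144, 186 and 526 CPM in RbpjΔEC mice 2, 1 and 3. The list was split, with 6 genes above 0 and 4 below on the log2 scale, 0 higher and 2 lower at an unadjusted p of 0.05, and a median of 1.01. Aqp2, the water channel of the collecting duct, had the smallest p, at 9.56, 2.68 and 2.22 CPM in CTRL mice 1, 2 and 3 and 0.736, 0.262 and 1.12 CPM in RbpjΔEC mice 1, 2 and 3 (adjusted p = 0.159 in edgeR). The proximal tubule gene Slc34a1 was at 6.22 to 21.9 CPM in the CTRL libraries and at 17.1, 19.5 and 73.5 CPM in RbpjΔEC mice 1, 2 and 3. The third RbpjΔEC library, highest in its group for Gja5, Gja1 and Panx1 and lowest for Gja4 and Gjc1, thus had the highest tubule sum of all 6. Of 6 podocyte genes 0 were called, 1 was higher and 1 lower at an unadjusted p of 0.05 (DESeq2 called 1 in each direction), and the median was -0.50, with sums of 3228 to 3595 CPM against 2648 to 2932 CPM, mostly from Podxl, which ECs also express. Of 3 tested stromal genes 1 fell, Pdgfra (adjusted p = 0.0468), 2 were lower at an unadjusted p of 0.05 and called by DESeq2, and the median was -1.67, with sums of 4.62 to 7.07 CPM against 1.54 to 2.92 CPM. Of 5 tested leukocyte genes 1 rose, Cd68, a lysosomal protein of macrophages, at 9.96 ± 2.71 and 24.0 ± 1.70 CPM (SD, n = 3 each, adjusted p = 0.0154), while 2 were lower at an unadjusted p of 0.05 and the median log2 fold change was -1.25, and of the 5 DESeq2 called Cd68 alone. The sums were 15.8 to 18.4 CPM against 23.9 to 29.3 CPM with Cd68, and 3.50 to 11.5 CPM against 1.85 to 4.29 CPM without it. Ptprc, the gene of the leukocyte antigen CD45 used in the sort, was at 2.59 ± 1.38 and 0.956 ± 0.563 CPM, with overlap (adjusted p = 0.188 in edgeR), and Cd3e was at 0 in all 6 libraries. Of 13 tested immediate-early genes, which respond within minutes to many stimuli, 6 rose and 0 fell, 12 were higher at an unadjusted p of 0.05, the median was 0.50 and DESeq2 called 10, all higher. The first by p was Egr1 (adjusted p = 0.00650 in edgeR), then Btg2, Atf3, Fos and Junb, and the sums were 5985 to 7069 CPM against 8021 to 9632 CPM. Each of Pdgfra, Cd68 and Egr1 lost its call without CTRL mouse 3 (adjusted p up to 0.186, 0.0917 and 0.0597 over the fits with a library left out), Pdgfra and Cd68 also without RbpjΔEC mouse 1 or 2, and Pdgfra without CTRL mouse 1. Btg2, Atf3, Fos and Junb each passed in 2 of 6 such fits, not without CTRL mouse 1 or 3 or RbpjΔEC mouse 1 or 2, with adjusted p up to 0.116, 0.164, 0.180 and 0.184, as did the remaining one of the 6, Ier2. The part of these differences in the members' values was not tested.

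The genes whose pattern over the 6 libraries was most like that of a member were found among 10438 genes with a mean of at least 5 CPM, by the root mean square difference of log2 CPM centred on each gene's mean. For Gja4 they were Scd1, a fatty acid desaturase (0.0961), Efhd1, a mitochondrial calcium-binding protein (0.112), and Adgrg6, an adhesion G-protein-coupled receptor (0.119). For Gja5 they were Slc45a4, a membrane transporter (0.182), Stmn2, a tubulin-binding protein (0.206), and Angpt1, the angiopoietin 1 that perivascular cells secrete to the endothelial receptor Tie2 (0.223). The distance between Gja4 and Gja5 themselves was 0.487, so neither was among the genes most like the other. All 6 were lower in the RbpjΔEC group, with log2 fold changes of -0.58 for Scd1, -0.81 for Efhd1, -0.54 for Adgrg6, -1.03 for Slc45a4, -1.24 for Stmn2 and -1.21 for Angpt1. They were picked for following Gja4 or Gja5 over these same libraries, so this direction was fixed by the choice and is given with no test.

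**Figure D4:**
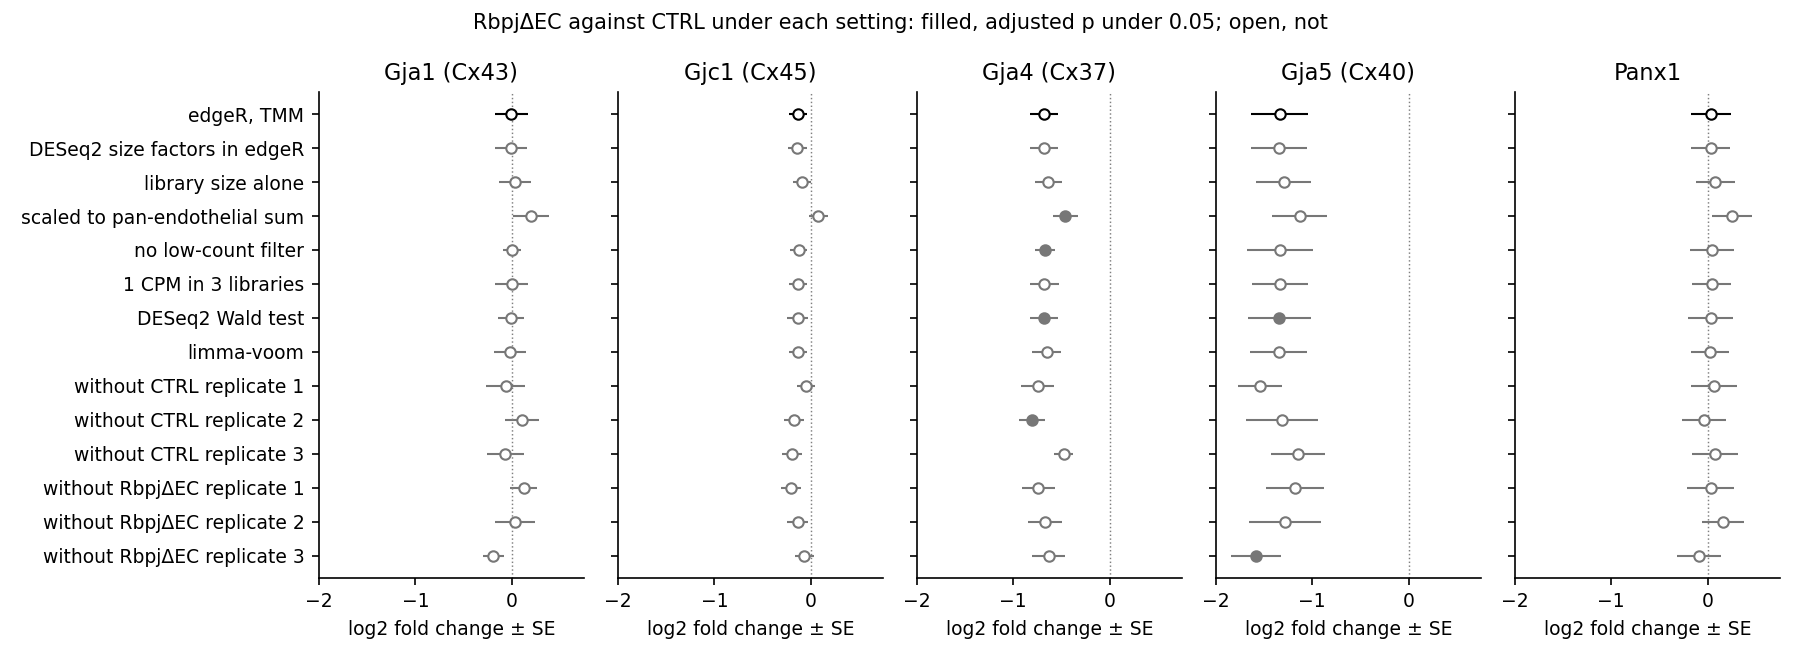
Log2 fold change of each member, RbpjΔEC relative to CTRL, in edgeR with TMM (black) and under other scalings, filters, tests and omitted libraries (grey), with bars for the SE and filled points for an adjusted p under 0.05. All points of Gja5 and Gja4 are below 0, between -1.58 and -1.13 and between -0.81 and -0.46, while those of Gja1 lie on both sides of 0.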

How the data were processed

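The authors trimmed the reads, aligned them to GRCm38.p6 and counted them per gene of GENCODE M25 with nf-core/rnaseq 1.4.2, and deposited raw counts as whole numbers without normalization. The submitters' processing notes name Trim Galore 0.6.4, STAR 2.6.1d and Subread 1.6.4. Whether the counting used strand is not given in the sources used here. Libraries were made with a total RNA kit from sorted cells, and groups were taken from the sample labels.

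From the deposited counts, genes were filtered with filterByExpr (18438 of 55401 kept), scaled by TMM and tested with edgeR 4.0.16 (glmQLFit and glmQLFTest, R 4.3.3), with Benjamini-Hochberg adjustment over all tested genes and a threshold of 0.05. Every adjusted p is from this fit unless another tool is named. Standard errors come from the fold change and the quasi-likelihood F, and log2 CPM used a prior count of 2. DESeq2 1.42.0 and limma-voom (limma 3.58.1) were alternatives, as were other scalings and filters, the replicate number as a block, and leaving out each library. The fit was tested on simulated data. Coordinates and lengths come from GENCODE M21, so they can differ from M25 for single genes. Promoters come from RefSeq.

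The members and the gene lists were chosen with earlier results of these data known. Named genes are the members, Rbpj, in each list the genes past the threshold (at most 5, or the one with the smallest p if none passed), and the 3 genes most like each member with an unadjusted p under 0.05. Gpr89, Dao, Vps4a, Cd3e, Ptprc, Flt4, Slc34a1, Kcnj8, Abcc9, Ier2, Hey1, Hey2, Nrp1, Dll4, Prox1, Nos3, Piezo1, Cspg4, Des, Notch3, Pdgfrb, Mylk, Reln and Podxl were named after their values were seen. Some items withheld here are not reported. Panx1 is the member with the fewest counts. No pair of libraries held identical counts.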

Additional observations from a re-analysis of the deposited data

How the results depend on the processing

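Gja5 and Gja4 were lower in the RbpjΔEC group under every alternative run, while their side of the threshold varied. With DESeq2 the log2 fold changes were -1.34 for Gja5 and -0.68 for Gja4, both past the threshold, and 584 genes and 2 members passed. With the pan-endothelial sum as the scale, Gja4 (-0.46) passed and Gja5 did not, Gja1 was at 0.20 and Gjc1 at 0.079, but the median of all genes also moved to 0.22, and 1552 genes (1457 higher, 95 lower) and 1 member passed. With no low-count filter Gja4 (-0.67) passed, 1436 genes and 1 member passed, and Gja1 was at 0.0023. Gja1 was also above 0 with library size alone (0.037) and a 1 CPM filter (0.00048). With each library left out in turn, the ranges were -1.58 to -1.15 for Gja5, -0.81 to -0.48 for Gja4, -0.19 to 0.13 for Gja1, -0.20 to -0.049 for Gjc1 and -0.088 to 0.16 for Panx1, 21 to 700 genes passed, and 0 to 1 members passed (Gja4 without the second CTRL mouse, Gja5 without the third RbpjΔEC mouse). The fewest genes passed without the first RbpjΔEC mouse and the most without the second CTRL mouse. By the longest transcript, 3 of the 5 members kept their place in the RbpjΔEC order. The sum of the members' levels was also taken by the longest transcript and without length, choices made after the data were seen, and its log2 ratio then was -0.25 and -0.20 in place of -0.36. The cause of these changes was not tested. The groups share replicate numbers, but the deviations of same-numbered libraries correlated at only 0.005 to 0.023 and 0 of 6 libraries correlated best with its own number, so the numbers were not taken as pairs. With the replicate number as a block, the log2 fold changes were -1.33 for Gja5 (adjusted p = 0.000284) and -0.66 for Gja4 (adjusted p = 0.0431), and 344 genes and 2 members passed, while Acvrl1 did not. With 3 mice a group, the spread between mice limits what can be called.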
